A study of Mus musculus with 9 samples.

Results

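The Hox genes are a family of homeodomain transcription factors that record where along the body axis a cell was made. RNA of mouse sciatic dorsal root ganglia was read here for this record. The members were all genes of the deposited expression table whose Ensembl identifier carries a Hoxa, Hoxb, Hoxc or Hoxd symbol, which gave 38 of the 39 Hox genes in the annotation and 38 of 45904 identifiers in the table. Hoxd4 was not matched and was not analysed here. Of the 38, 21 averaged at least 1 FPKM over the 9 libraries, a unit that counts sequenced fragments relative to gene length and to library depth, 8 had a mean of 0.2 to 1 FPKM, 3 lay under 0.2 FPKM but above 0 in some library, and 6 were at 0 in all libraries.

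Dorsal root ganglia hold the cell bodies of sensory neurons with their satellite glia and Schwann cells, and the sciatic ganglia are the lumbar ones whose axons form the sciatic nerve. Whole ganglia of C57BL/6 mice were compared in 3 groups of 3 libraries: young mice of 8 to 10 weeks after sham surgery, aged mice of 20 to 22 months after sham surgery, and aged mice of the same age after sciatic nerve injury, all taken 24 h after surgery. Each library pooled ganglia of 2 mice, and injured young mice were not among the libraries analysed here. Because whole ganglia were used, a change in a gene's level could come from fewer cells of a type or from less RNA per cell, and these cannot be told apart.

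Mouse Hox genes lie in 4 clusters, HoxA to HoxD, and are numbered in paralog groups from 1 at one end of a cluster to 13 at the other. In the embryo, genes of low number are switched on first and reach farthest toward the head, and genes of high number are switched on later and farther toward the tail, so that the set of active genes, the Hox code, marks the segment. Hox expression persists in adult neurons and mesenchyme. There, groups 8 to 10 are typical of trunk and lumbar levels and groups 11 to 13 of sacral and tail levels.

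What the members share is the homeobox, the 180 bases that encode the DNA-binding homeodomain. The sequences below are those of the 3 Hox genes with the highest mean FPKM and, as the most posterior one at a clear level, of the highest gene among groups 11 to 13. Capitals mark the 51 bases of the third helix (residues 42 to 58 of the homeodomain), which enters the major groove of DNA. All 4 lie in exon 2 of 2 in the coding sequence, on build GRCm38 (mm10), at chr2:74706525-74706704 (plus strand) for Hoxd8, chr6:52232554-52232733 (minus strand) for Hoxa10, chr11:96274659-96274838 (plus strand) for Hoxb9 and chr2:74683917-74684096 (plus strand) for Hoxd11.
Hoxd8: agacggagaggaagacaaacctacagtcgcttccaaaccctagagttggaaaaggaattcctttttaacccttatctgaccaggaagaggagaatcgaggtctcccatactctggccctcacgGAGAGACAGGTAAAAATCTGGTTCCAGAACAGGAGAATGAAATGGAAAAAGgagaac
Hoxa10: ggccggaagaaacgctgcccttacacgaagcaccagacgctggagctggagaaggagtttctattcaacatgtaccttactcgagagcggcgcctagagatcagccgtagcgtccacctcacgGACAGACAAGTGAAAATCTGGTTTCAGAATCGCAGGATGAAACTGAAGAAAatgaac
Hoxb9: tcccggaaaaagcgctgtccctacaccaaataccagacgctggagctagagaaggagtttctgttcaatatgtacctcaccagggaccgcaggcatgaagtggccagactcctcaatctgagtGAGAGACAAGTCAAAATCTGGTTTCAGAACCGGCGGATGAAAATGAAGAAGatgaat
Hoxd11: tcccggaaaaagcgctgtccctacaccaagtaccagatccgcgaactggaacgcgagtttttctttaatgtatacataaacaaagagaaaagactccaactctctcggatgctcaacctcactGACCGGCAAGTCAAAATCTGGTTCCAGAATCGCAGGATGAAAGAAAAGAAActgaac

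The homeobox is alike between paralogs, but not so alike that a read within the coding sequence of 1 gene would match another along its whole length. Over 741 pairs of the 39 annotated genes, the median share of identical homeobox bases was 80.6% for the 42 pairs of the same paralog group and 60.6% for the other 699. Of the sequences shown, Hoxa10 and Hoxb9 were the most alike, at 75% of bases, and Hoxd8 and Hoxd11 the least, at 58.9%. The longest stretch shared by the coding sequences of any pair was 52 bases, against sequenced reads of 100 bases. Only 1 coding sequence per gene was compared, so untranslated parts were not covered. On the same strand, the annotated span of Hoxa3 covers Hoxa4, Hoxa5 and Hoxa6. That of Hoxc5 covers Hoxc6, Hoxc8 and Hoxc9 and overlaps Hoxc10. How reads in these overlaps were assigned was not tested. Antisense genes are a different matter: 13 Hox genes overlap an annotated antisense gene, and the handling of strand is not given in the sources used here, so reads of the partners could not be told apart, for example for Hoxa3, Hoxa4, Hoxa5, Hoxa6, Hoxa7, Hoxa11, Hoxb2, Hoxb3, Hoxb5, Hoxb6, Hoxd3 and Hoxd8.

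Facts of the libraries bear on all values below. The FPKM steps gave whole reads for 17578 of 17601 tested genes (99.9%), and relative to young sham replicate 1 the worth of 1 read ranged from 0.8162 to 1.1819, so the depths differed by less than 1.5-fold. Each of the 21 Hox genes of at least 1 FPKM rested on 16 to 826 reads per library, known up to a common factor per gene. The 11 sensory neuron markers, all above 1 FPKM on average, summed to 4441 to 4628 FPKM in young sham, 4105 to 4570 in aged sham and 3847 to 4190 in aged injury libraries. The 6 satellite glia markers summed to 1643 to 1683, 1516 to 1653 and 1261 to 1405 FPKM in the same order. The 6 myelinating Schwann cell markers summed to 2696 to 3102 FPKM in young sham, 1798 to 1912 in aged sham and 1567 to 1826 in aged injury libraries. The 6 macrophage markers summed to 24.4 to 27.2, 37.2 to 63.7 and 40.7 to 61.6 FPKM in the same order, and the 6 skeletal muscle markers to 36.7 to 338, 12.6 to 233 and 3.23 to 33.9 FPKM. Of the 9 spinal cord markers, Mog, Olig1, Olig2, Mnx1 and Chat did not exceed 0.105 FPKM in any library and Opalin was at 0; most of the listed signal was Mag (mean 9.85 FPKM), which Schwann cells also make, and Aqp4 (3.11 FPKM). Sex was not among the labels used: the female transcript Xist was at most 0.0200 FPKM in young libraries and 9.77 to 13.1 in 5 aged ones, and aged sham replicate 1 had 1.75 FPKM of Xist with 10.9 FPKM of the Y-linked gene Ddx3y, so age and sex cannot be told apart in these groups.

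The Hox code of the ganglia was centred on paralog groups 7 to 10. Group 9 held 25.4% of the summed Hox FPKM on average, groups 8 and 10 held 16.6% each, and group 7 held 12.8%. Groups 4 to 6 held 4.01%, 5.80% and 7.37%, group 11 held 1.79%, group 12 was at 0 and group 13 held 0.0098%. Group 1 broke the gradient with 8.12%, nearly all of it Hoxd1. The 4 clusters were all active, with mean sums of 35.0 FPKM for HoxA, 30.5 for HoxB, 21.3 for HoxC and 32.5 for HoxD.

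**Figure D1:**
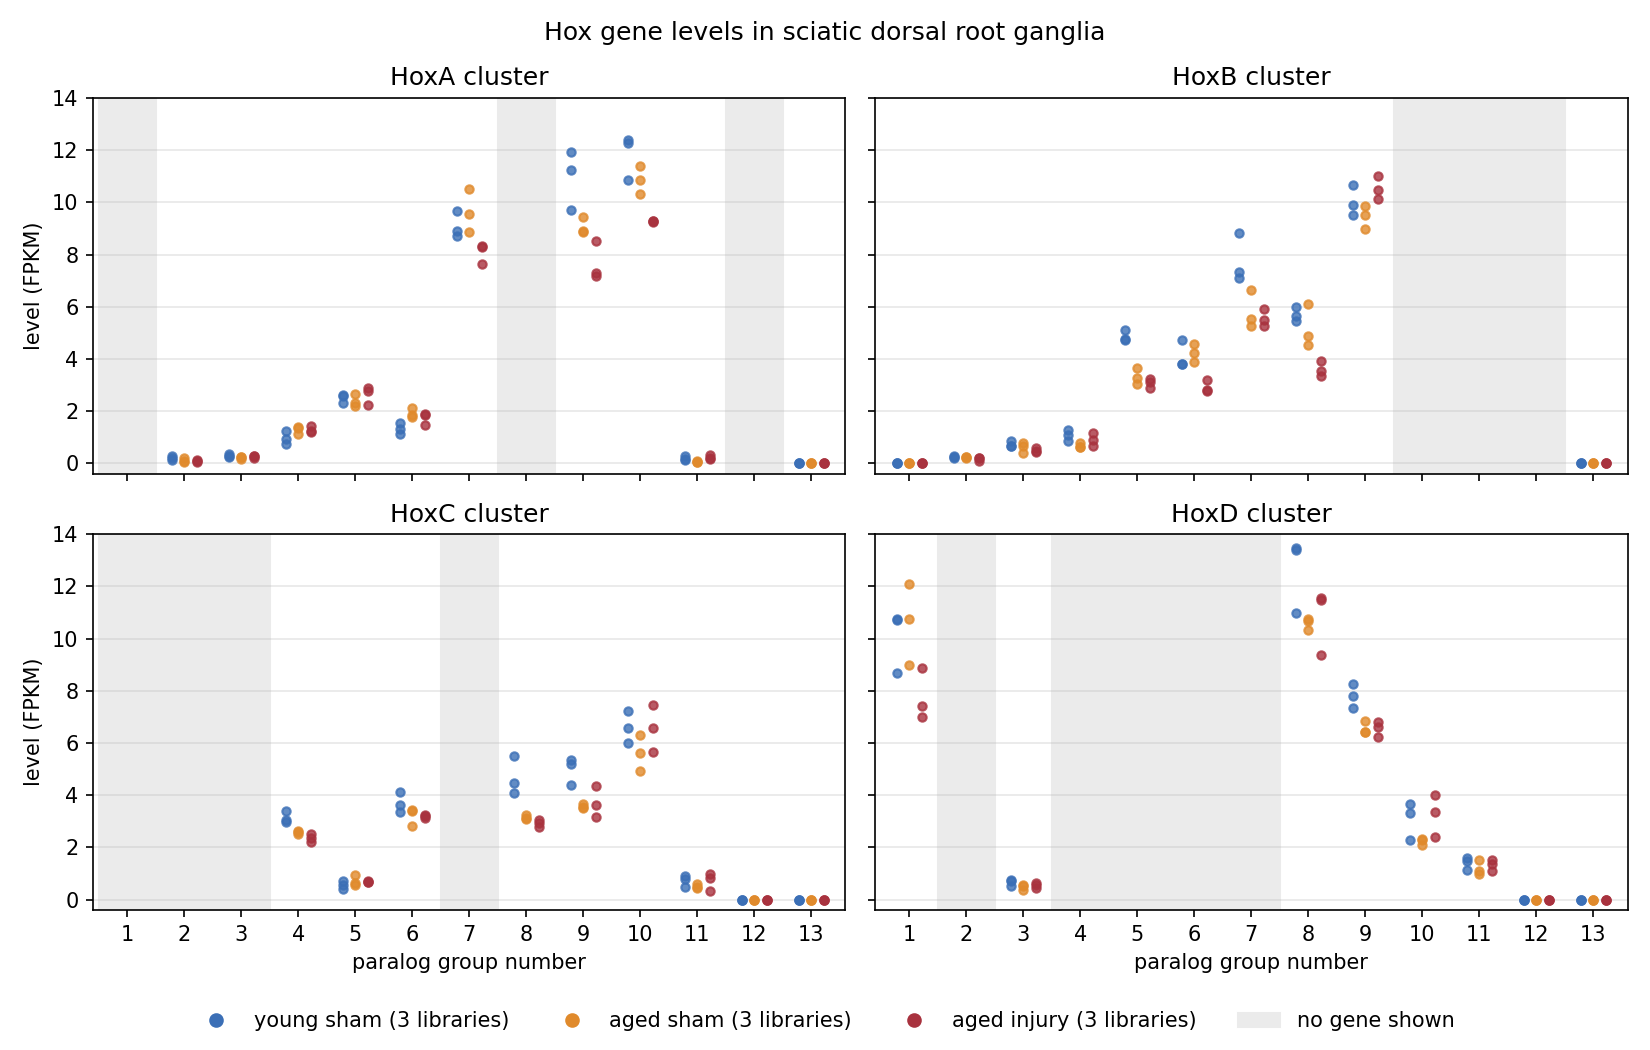
FPKM (vertical axis) of 37 of the 38 Hox genes by paralog group (horizontal axis), 1 panel per cluster, with 1 point per library coloured by group and grey bands where no gene is shown. In HoxA, HoxC and HoxD the levels drop from group 10 to group 11, and in HoxB the highest level is in group 9, while Hoxd1 stands apart at 6.98 to 12.1 FPKM.

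The 3 highest means belonged to genes of groups 8 to 10. Hoxd8 had 13.5, 10.99 and 13.4 FPKM in young sham, 10.7, 10.7 and 10.3 in aged sham and 11.6, 11.5 and 9.38 in aged injury libraries. Hoxa10, a gene of the lumbar programme, had 12.3, 10.9 and 12.4, then 10.3, 11.4 and 10.9, then 9.26, 9.30 and 9.29 FPKM in the same order of groups. Hoxb9, at the posterior end of the tightly packed part of its cluster, had 10.7, 9.53 and 9.88, then 8.99, 9.86 and 9.50, then 10.1, 10.5 and 11.02 FPKM. These 3 genes ranked between 1 and 5 in every library, and their groups lay close together, with Hoxa10 lowest in the aged injury libraries.

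The other group 9 and 10 genes covered a wider range. Hoxa9 had 11.2, 9.72 and 11.9 FPKM in young sham, 8.91, 9.43 and 8.87 in aged sham and 7.29, 8.52 and 7.18 in aged injury libraries, 3 sets that did not overlap. Hoxd9 had 7.33, 7.81 and 8.25 FPKM in young sham, all above the aged libraries, which had 6.44, 6.41 and 6.83 after sham and 6.81, 6.25 and 6.61 after injury. Hoxc9 had 5.37, 4.40 and 5.20 FPKM, then 3.52, 3.54 and 3.68, then 3.64, 3.15 and 4.35. Hoxc9 was thus higher in every young library than in any aged one. Hoxc10, which with its paralogs specifies lumbar identity, had 7.23, 6.57 and 6.01, then 5.62, 4.93 and 6.31, then 5.68, 6.57 and 7.47 FPKM. Hoxd10, needed for the lumbar motor innervation of the hind limb, had 3.66, 3.31 and 2.30, then 2.11, 2.30 and 2.31, then 3.36, 3.99 and 2.39 FPKM. For both, young sham and aged injury libraries overlapped and aged sham had the lowest mean, and all Hoxd10 values after injury were above those of aged sham.

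Groups 6 to 8 gave most of the remaining signal. Hoxa7 had 8.91, 9.675 and 8.72 FPKM in young sham, 10.5, 8.88 and 9.555 in aged sham and 8.35, 7.66 and 8.275 in aged injury libraries. Hoxb7 had 7.12, 7.35 and 8.82, then 5.53, 5.28 and 6.64, then 5.25, 5.91 and 5.50 FPKM. Hoxb8, a gene needed for normal dorsal horn and sensory circuits, had 5.45, 5.66 and 6.00, then 4.55, 4.88 and 6.11, then 3.56, 3.34 and 3.94 FPKM. Hoxa7 and Hoxb8 were lowest in the aged injury libraries, below every library of the other groups, whereas all young Hoxb7 values exceeded all aged ones. Hoxc8, which sets the pool identity of brachial motor neurons and is also made in sensory neurons, had 4.49, 4.09 and 5.49, then 3.24, 3.12 and 3.07, then 2.80, 2.92 and 3.03 FPKM. Hoxb6 had 4.71, 3.80 and 3.80, then 3.89, 4.23 and 4.57, then 2.80, 2.78 and 3.21 FPKM. Hoxc6 had 3.37, 3.63 and 4.12, then 3.38, 2.83 and 3.445, then 3.22, 3.24 and 3.14 FPKM. Hoxc8 separated all 3 groups, Hoxb6 separated the injured libraries from both sham groups, and Hoxc6 separated the injured from the young libraries. Hoxa6 had 1.53, 1.30 and 1.14, then 1.79, 1.86 and 2.11, then 1.90, 1.85 and 1.48 FPKM, with aged sham above young sham in every library.

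The genes of groups 4 and 5 were lower. Hoxb5, a gene with roles in neural crest derivatives, had 5.12, 4.78 and 4.72 FPKM in young sham, 3.65, 3.06 and 3.29 in aged sham and 3.13, 3.22 and 2.88 in aged injury libraries. Hoxa5 had 2.30, 2.61 and 2.58, then 2.19, 2.67 and 2.32, then 2.90, 2.76 and 2.22 FPKM. The young Hoxb5 values exceeded all aged ones, while the Hoxa5 values of the 3 groups overlapped. Hoxc4 had 3.41, 2.96 and 3.05, then 2.61, 2.52 and 2.58, then 2.37, 2.20 and 2.51 FPKM, again 3 sets without overlap. Hoxa4 had 0.761, 1.26 and 0.956, then 1.41, 1.13 and 1.36, then 1.20, 1.42 and 1.26 FPKM, which overlapped.

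At the ends of the code, Hoxd1, known from mammalian nociceptors where it shapes their central and peripheral branching, was the fourth highest Hox gene, with 10.7, 8.69 and 10.7 FPKM in young sham, 8.97, 12.1 and 10.8 in aged sham and 7.42, 8.86 and 6.98 in aged injury libraries. Its group 1 paralog Hoxb1 was at 0. Hoxd11, which with its group 11 paralogs patterns the zone between lumbar and sacral levels, had 1.46, 1.60 and 1.14, then 1.11, 1.52 and 0.986, then 1.51, 1.37 and 1.10 FPKM. The Hoxd1 values after injury lay below those of aged sham but overlapped with young sham, and the Hoxd11 values overlapped between all groups.

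The genes of 0.2 to 1 FPKM belonged mainly to groups 2 to 5. Hoxa3 ranged from 0.157 to 0.365 FPKM, Hoxb2 from 0.105 to 0.304, Hoxb3 from 0.413 to 0.856, Hoxd3 from 0.365 to 0.753, Hoxb4 from 0.627 to 1.27, Hoxc5 from 0.391 to 0.930 and Hoxc11 from 0.317 to 0.975. Beneath the filter of 0.2 FPKM, Hoxa2 ranged from 0.0641 to 0.296 FPKM and Hoxa11 from 0.0578 to 0.322, on 2 to 14 reads for Hoxa11. The means just above and just below that filter were 0.216 and 0.169 FPKM. Hoxb13 was above 0 in 3 libraries, with 1 read in each. Hoxa13, Hoxb1, Hoxc12, Hoxc13, Hoxd12 and Hoxd13 had 0 reads throughout, and 3 reads in a library would correspond to between 0.0731 and 0.26 FPKM for these genes, from their annotated lengths and the implied depth.

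The order of levels was much the same in all libraries. The same 9 genes (Hoxd8, Hoxa10, Hoxb9, Hoxd1, Hoxa9, Hoxa7, Hoxd9, Hoxb7 and Hoxc10) were among the 10 highest Hox genes in each of the 9 libraries. Neighbours in this order mostly did not differ beyond their spread: the means of Hoxd8 (11.3 FPKM), Hoxa10 (10.7), Hoxb9 (10.0), Hoxd1 (9.47), Hoxa9 (9.23) and Hoxa7 (8.95) lay within ranges that overlapped from 1 gene to the next, and the next mean was that of Hoxd9 (6.97). Across the 38 genes, Pearson's r between libraries was 0.989 to 0.996 within groups (9 pairs) and 0.984 to 0.993 between groups (27 pairs). These correlations are across genes that span from 0 to over 10 FPKM, are given as a description, and do not treat genes as replicates.

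To set the axial level of the ganglia side by side, the mean paralog number was taken for each library, weighting each Hox gene by its FPKM. It was 7.41, 7.43 and 7.37 in young sham, 7.32, 7.23 and 7.28 in aged sham, and 7.47, 7.44 and 7.51 in aged injury libraries. The group means were 7.40 ± 0.0331, 7.27 ± 0.0440 and 7.47 ± 0.0334 (SD, n = 3). The groups did not overlap, yet all libraries lay within 0.282 of a paralog number. Leaving out Hoxd1, a choice made after its values had been seen, narrowed this range: the means were then 7.93 ± 0.0253, 7.90 ± 0.0467 and 7.97 ± 0.0277 (SD, n = 3), and the groups overlapped, with all libraries between 7.86 and 8.00. The difference between aged sham and young sham shrank from -0.1305 to -0.0272, and that between aged injury and aged sham from 0.2019 to 0.0671.

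**Figure D2:**
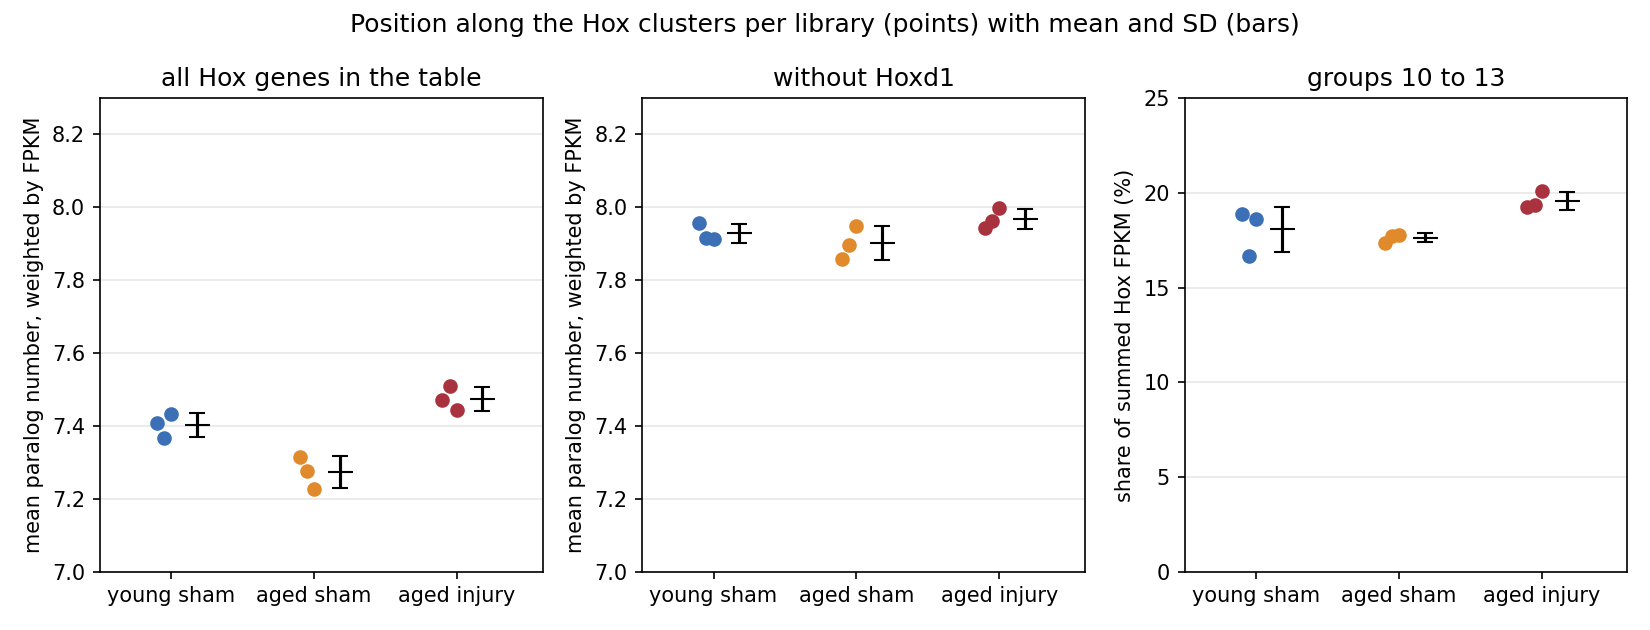
Mean paralog number weighted by FPKM, with all Hox genes (left) and without Hoxd1 (middle), and the share of summed Hox FPKM in groups 10 to 13 in percent (right), by group; points are libraries and bars the mean and SD of 3. The first 2 axes start at 7, and all libraries fall between 7.23 and 7.51 with Hoxd1 and between 7.86 and 8.00 without it.

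The clusters did not move as one. Within HoxA the mean paralog number was 8.20 ± 0.1003 in young sham, 8.05 ± 0.0571 in aged sham and 7.96 ± 0.0362 in aged injury libraries (SD, n = 3). Within HoxB it went the other way, at 7.13 ± 0.0075, 7.26 ± 0.0673 and 7.37 ± 0.0342. HoxC had 7.95 ± 0.0780, 7.87 ± 0.0343 and 8.05 ± 0.0722, and HoxD, which holds Hoxd1, had 6.45 ± 0.167, 6.05 ± 0.204 and 6.68 ± 0.121. The share of groups 10 to 13, the posterior end of the code, was 18.1% ± 1.20 in young sham, 17.6% ± 0.235 in aged sham and 19.6% ± 0.475 in aged injury libraries (SD, n = 3). Every injured library, at 19.2% to 20.1%, lay above the other 6, which reached 18.9%. The amounts behind this share were on average not higher after injury than in young sham. Group 10 summed to 21.5 ± 1.43 FPKM in young sham, 18.7 ± 0.724 in aged sham and 19.1 ± 0.787 in aged injury libraries (SD, n = 3). Group 11 summed to 2.33 ± 0.363, 1.80 ± 0.243 and 2.27 ± 0.584 FPKM in the same order. The log2 ratios of the group 10 to the group 9 gene did not move together either. In young sham, aged sham and aged injury libraries, in that order, Hoxa10 to Hoxa9 was 0.12 ± 0.053, 0.26 ± 0.042 and 0.28 ± 0.135, and Hoxc10 to Hoxc9 was 0.41 ± 0.186, 0.64 ± 0.153 and 0.83 ± 0.214 (SD, n = 3). Hoxd10 to Hoxd9 was -1.36 ± 0.434, -1.55 ± 0.0667 and -1.04 ± 0.411, so that its mean was lower in aged than in young sham while those of the HoxA and HoxC pairs were higher. No test was made of these summary measures.

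The summed level of the family also differed between the groups. The 38 genes summed to 132 ± 5.95 FPKM in young sham, 116 ± 3.05 in aged sham and 109 ± 2.13 in aged injury libraries (SD, n = 3). The lowest young library, at 125 FPKM, was above the highest aged one, at 119.6 FPKM.

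The first comparison set aged sham against young sham ganglia, where age and sex cannot be told apart. Changes with age below are changes in this contrast. Hoxb5 and Hoxc8 were called lower and no Hox gene was called higher, out of 29 Hox genes that passed the filter on mean level. Hoxb5 (chr11:96303336-96306121, plus strand) went from 4.87 ± 0.220 to 3.33 ± 0.296 FPKM (SD, n = 3), a fall of 1.45-fold (log2 change -0.54, SE 0.0909, limma adjusted p = 0.0273). Hoxc8 (chr15:102990607-102994111, plus strand) went from 4.69 ± 0.722 to 3.15 ± 0.0879 FPKM, a fall of 1.47-fold (log2 change -0.55, SE 0.109, limma adjusted p = 0.0362). Of all 17601 genes tested, 1.49% were called lower, 2.53% higher and 4.02% in either direction. The 2 Hox genes are 6.9% of the 29, a share that rests on 2 genes. All log2 changes and folds are on the log2(FPKM + 0.1) scale.

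Most Hox genes had a log2 change below 0 with age. They were 22 of the 29 (75.9%), against 43% of all genes, and their median was -0.23 against 0.05 over all genes. With equal medians 49.9% of all genes and 23 Hox genes were below 0, and with quantile normalization 51.8% and 24. The groups did not overlap for 10 Hox genes (34.5%) that were lower in aged sham, against 11.5% of all genes: Hoxa3, Hoxa9, Hoxb4, Hoxb5, Hoxb7, Hoxc4, Hoxc8, Hoxc9, Hoxd8 and Hoxd9. Among these, Hoxc9 (log2 change -0.46, adjusted p = 0.0632), Hoxb7 (-0.41, adjusted p = 0.0662) and Hoxd9 (-0.25, adjusted p = 0.0742) missed the threshold of 0.05. Hoxa6 alone was higher in every aged sham library, with a log2 change of 0.51 (SE 0.148, adjusted p = 0.0760), against 17.7% of all genes without overlap in that direction. By cluster, 4 of 8 HoxA, 7 of 8 HoxB, 6 of 7 HoxC and 5 of 6 HoxD genes had a log2 change below 0. The myelin marker sums given above were also lower in every aged library than in any young one, and the sensory neuron factors Isl1 (log2 change -0.33, adjusted p = 0.0284) and Pou4f1 (-0.39, adjusted p = 0.0169) fell as well; their part in the Hox values was not tested.

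Both age calls hung on single libraries. No Hox gene was called without young sham replicate 1 or 3, aged sham replicate 2 or 3, or aged injury replicate 1, although 6 to 10 Hox genes had an unadjusted p under 0.05 in each of those fits. Without aged sham replicate 1, the library with both Xist and Ddx3y, Hoxb5 was still called (adjusted p = 0.0332) and Hoxc8 was not (adjusted p = 0.0576). Without young sham replicate 2, 3 Hox genes were called.

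**Figure D3:**
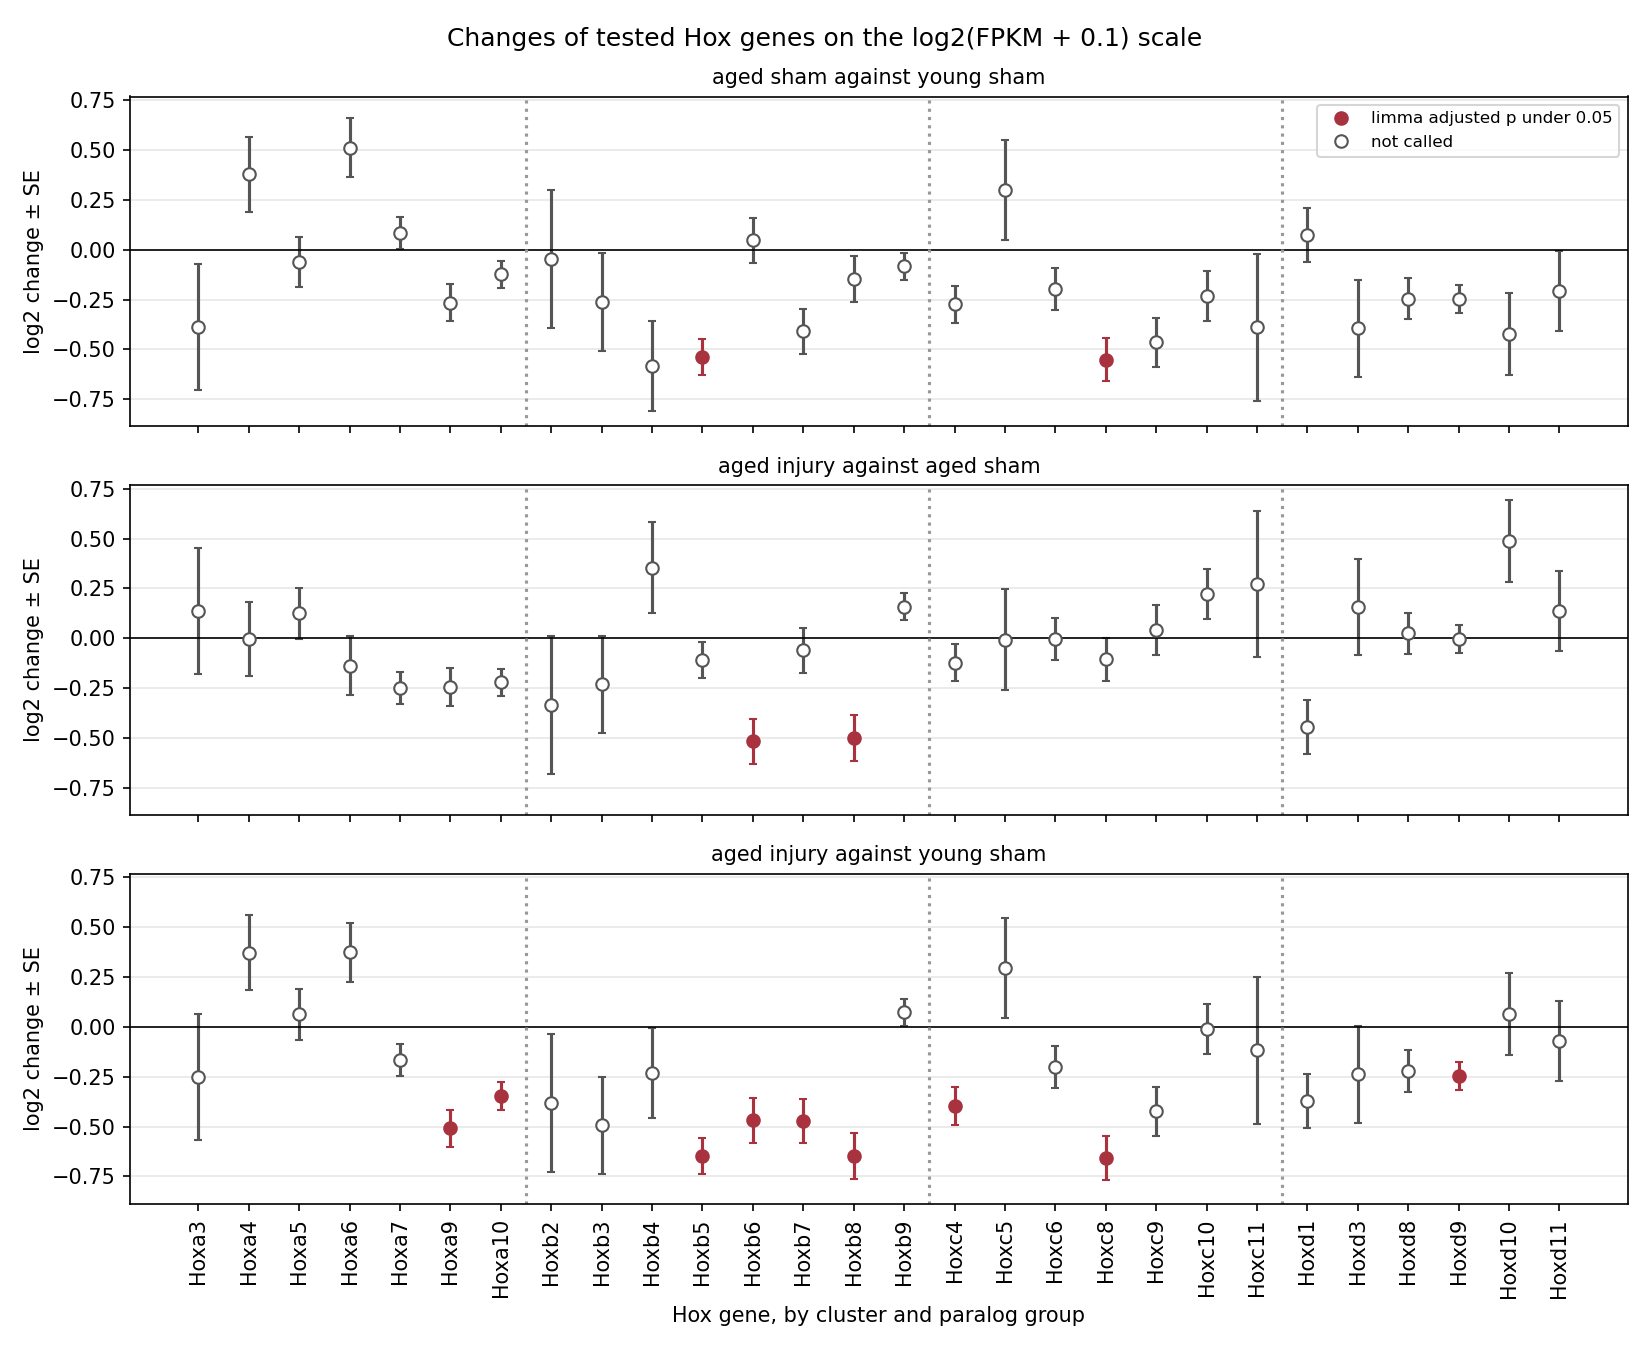
Log2 change with its standard error (vertical axis) of 28 of the 29 tested Hox genes, ordered by cluster and paralog group, in the 3 comparisons; filled red points have a limma adjusted p under 0.05. The called genes (2, 2 and 9) all lie below 0, between -0.66 and -0.25.

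The second comparison set injured against sham ganglia of aged mice. By Xist and Ddx3y, given above, aged sham replicate 1 differed from the other aged libraries, so the 2 groups were not alike in sex. The part of sex in this contrast was not tested. Hoxb6 and Hoxb8, separated by a single gene in the HoxB cluster, were called lower after injury, and no Hox gene was called higher. Hoxb6 (chr11:96292476-96301569, plus strand) went from 4.23 ± 0.336 to 2.93 ± 0.240 FPKM (SD, n = 3), a fall of 1.43-fold (log2 change -0.52, SE 0.112, limma adjusted p = 0.0391). Hoxb8 (chr11:96281905-96285315, plus strand) went from 5.18 ± 0.820 to 3.61 ± 0.305 FPKM, a fall of 1.41-fold (log2 change -0.50, SE 0.115, limma adjusted p = 0.0466). Over all genes 1.65% were called lower, 2.45% higher and 4.11% in either direction, against 6.9% of Hox genes, again from 2 genes. Hoxb7, which lies between the 2 genes, had 5.82 ± 0.721 FPKM before and 5.55 ± 0.330 after injury, and was not called.

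The family as a whole was centred on no change in this comparison. The median log2 change was -0.0046 against -0.011 over all genes, and 17 of 29 Hox genes (58.6%) were below 0 against 52.1%. The groups did not overlap for 8 Hox genes lower after injury (27.6% of the 29: Hoxa7, Hoxa9, Hoxa10, Hoxb6, Hoxb8, Hoxc4, Hoxc8 and Hoxd1), against 13.7% of all genes. Hoxd1 had the largest of these log2 changes after the called pair, at -0.44 (SE 0.135, adjusted p = 0.106), and Hoxa7 (-0.25), Hoxa9 (-0.24) and Hoxa10 (-0.22) had adjusted p of 0.123, 0.191 and 0.116. Hoxb9 (log2 change 0.16, adjusted p = 0.239) and Hoxd10 (0.49, adjusted p = 0.230) were higher in every injured library, against 11.7% of all genes. Of the 5 tested genes of groups 10 and 11, 4 had a log2 change above 0, with Hoxa10 the exception, while 52.1% of all genes were below 0. The satellite glia marker sums were lower in every injured library than in any aged sham library, and their part in the Hox values was not tested.

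The injury calls were also sensitive to single libraries. Leaving out young sham replicate 1 or 2 or aged sham replicate 1 left 1 Hox gene called, and leaving out any of the other 6 libraries left 0, with 6 or 7 genes at an unadjusted p under 0.05. Without aged sham replicate 1, Hoxb8 was called (adjusted p = 0.0421) and Hoxb6 was not (adjusted p = 0.0516). For Hoxb8 the aged sham libraries themselves were spread, and without aged sham replicate 3, the highest, its log2 change was -0.38.

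Hoxb8 carries a site that makes the neighbourhood of these genes of interest, the nearly perfect match in its 3′ UTR to miR-196a, a microRNA encoded beside Hoxb9 and again in the HoxC cluster. The site and the mature microRNAs are shown because Hoxb8 was 1 of the called genes, which was chosen after its values were seen. Capitals mark the seed (bases 2 to 8) of the microRNAs and, in the site, the bases that face it. The site lies at chr11:96284888-96284909 (plus strand, GRCm38, exon 2 of 2), 421 bases after the end of the coding sequence. All 22 bases pair with miR-196a, 21 as Watson-Crick pairs and 1 as a G:U pair, which lies within the capitals. The microRNA sequences are from RefSeq, build GRCm38.p6.
Hoxb8 site: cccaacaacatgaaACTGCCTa
mmu-miR-196a-5p: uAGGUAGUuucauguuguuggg
mmu-miR-196b-5p: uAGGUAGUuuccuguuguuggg
The libraries were made from mRNA and do not measure mature microRNA. The row of the precursor gene Mir196a-1 had 15.6, 12.6 and 11.4 FPKM in young sham, 9.14, 14.9 and 12.2 in aged sham and 7.89, 1.43 and 7.07 in aged injury libraries, so that every injured library lay below every sham library. These values rest on 2 to 21 reads per library, and the reads themselves overlapped: 13, 2 and 9 after injury against 12 to 21 in the sham libraries. The rows of Mir196a-2 and Mir196b were at 0 in every library.

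The third comparison set injured aged ganglia against young sham ganglia, where age, injury and sex cannot be told apart and where both groups also serve in the comparisons above. In it 9 Hox genes were called lower and none higher, out of 29: Hoxa9, Hoxa10, Hoxb5, Hoxb6, Hoxb7, Hoxb8, Hoxc4, Hoxc8 and Hoxd9. Over all genes 4.89% were called lower, 8.2% higher and 13.1% in either direction, against 31% of the Hox genes, all lower. The called genes were 2 of 8 in HoxA, 4 of 8 in HoxB, 2 of 7 in HoxC and 1 of 6 in HoxD. Of the 9, 8 belonged to groups 4 to 9, which held 18 of the 29 tested Hox genes.

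Hoxc8 had the largest fall, 1.58-fold from 4.69 ± 0.722 to 2.92 ± 0.117 FPKM (SD, n = 3; log2 change -0.66, SE 0.109, limma adjusted p = 0.00723). Hoxb5 fell 1.57-fold to 3.07 ± 0.175 FPKM (log2 change -0.65, limma adjusted p = 0.00373) and Hoxb8 1.57-fold from 5.70 ± 0.276 to 3.61 ± 0.305 FPKM (log2 change -0.65, limma adjusted p = 0.00957). These 3 stayed called with any 1 of the 9 libraries left out. Hoxa9 fell 1.42-fold from 10.95 ± 1.12 to 7.67 ± 0.746 FPKM (log2 change -0.51, limma adjusted p = 0.0109) and lost its call only without aged injury replicate 3, at an adjusted p of 0.0507. Hoxa10 went from 11.8 ± 0.861 to 9.28 ± 0.0238 FPKM, a smaller fall of 1.27-fold (log2 change -0.35, limma adjusted p = 0.0143).

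The remaining 4 were nearer the threshold. Hoxb7 had a log2 change of -0.47 (limma adjusted p = 0.0262), Hoxb6 of -0.47 (adjusted p = 0.0277), Hoxc4 of -0.40 (adjusted p = 0.0264) and Hoxd9 of -0.25 (adjusted p = 0.0497). Hoxd9 lost its call whichever library was left out. The number of called Hox genes was 4 without replicate 1 or 3 of young sham or replicate 3 of aged injury, 5 without aged injury replicate 1 and 6 without aged injury replicate 2. Hoxc9 stayed just outside, with a log2 change of -0.42 and an adjusted p of 0.0531. No Hox gene was higher without overlap, against 19.9% of all genes, and 13 (44.8%) were lower without overlap, against 15.5%. The median log2 change over the 29 was -0.24 against 0.02 over all genes, and 22 (75.9%) were below 0 against 46.5%. The value over all genes depended on the scaling: 57.8% were below 0 with equal medians and 56.7% with quantile normalization, where 25 and 24 of the 29 Hox genes were below 0. Of the genes of groups 10 and 11 that were tested, Hoxa10 was called, as given above. Hoxc10 (6.60 ± 0.612 and 6.57 ± 0.900 FPKM), Hoxd10 (3.09 ± 0.708 and 3.25 ± 0.807), Hoxd11 (1.40 ± 0.236 and 1.33 ± 0.204) and Hoxc11 (0.730 ± 0.220 and 0.706 ± 0.345) were not called. In group 9, Hoxa9 and Hoxd9 were called and Hoxc9 and Hoxb9 (10.0 ± 0.580 and 10.6 ± 0.441 FPKM) were not.

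**Figure D4:**
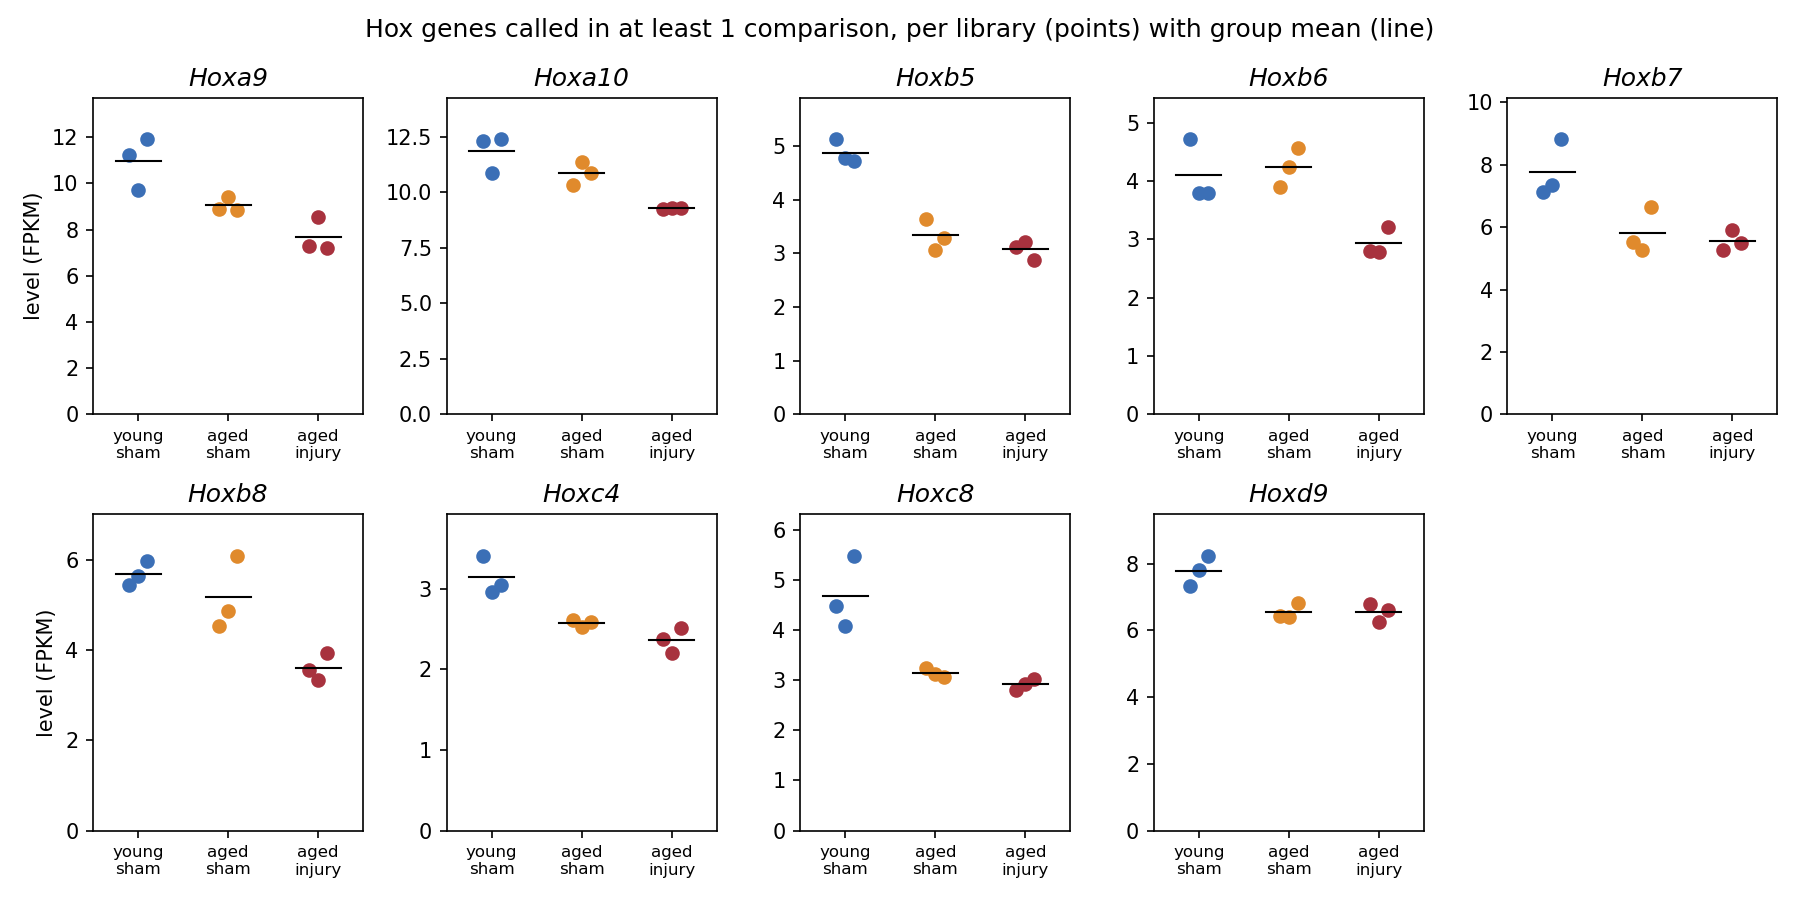
FPKM per library (points; vertical axis from 0) of the 9 Hox genes called in at least 1 comparison, with the group mean as a line. Hoxa9, Hoxb5, Hoxb7, Hoxc4, Hoxc8 and Hoxd9 are lower in all 6 aged libraries than in young sham, and Hoxb6 and Hoxb8 are lowest in the 3 injured libraries.

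Hox proteins bind DNA together with the TALE homeodomain proteins of the Pbx, Meis and Pknox families. All 9 such genes were in the table and 8 had at least 1 FPKM, led by Pbx2 (mean 15.5 FPKM) and Meis3 (10.5). None of the 9 was called with age or with injury by limma, with 3 at an unadjusted p under 0.05 in each of these comparisons. Meis2 fell between young sham (3.03, 3.13 and 3.28 FPKM) and aged injury libraries (2.33, 2.19 and 2.01), with a log2 change of -0.51 (limma adjusted p = 0.0103), and its aged sham values of 2.30, 2.42 and 2.54 FPKM lay in between or beside the injured ones.

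Other genes in or beside the clusters share the chromosomal neighbourhood of the Hox genes. Of 12 listed neighbours 11 were in the table and 7 were tested, and limma called 0 of 7 in any comparison, with 3, 1 and 2 at an unadjusted p under 0.05. The highest were Hibadh (32.4 FPKM) and Skap2 (23.0), both next to HoxA. Of 15 noncoding RNAs of the clusters 12 were in the table and 6 were tested; 0 of 6 were called in any comparison, with 0, 1 and 1 at an unadjusted p under 0.05. The highest were Haglr (2.49 FPKM), from the anterior end of HoxD, and Hotairm1 (1.08 FPKM), at the anterior end of HoxA, and Evx1os was at 0 throughout.

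Polycomb and Trithorax proteins keep Hox genes silent or active through cell division. Of 21 such genes, all tested, Cbx7, a Polycomb reader of methylated histone, rose with age from 4.47, 4.70 and 4.295 FPKM to 6.01, 6.16 and 6.01 (log2 change 0.43, limma adjusted p = 0.0337). Ezh1, a Polycomb methyltransferase of non-dividing cells, rose between young sham (11.2, 11.9 and 10.7 FPKM) and aged injury libraries (14.1, 13.9 and 13.7), with a log2 change of 0.30 (limma adjusted p = 0.0212). No other member was called with age or in the third comparison, and limma called 0 of 21 with injury, with 4 at an unadjusted p under 0.05. The highest members were Phc2 (14.1 FPKM) and Suz12 (13.1 FPKM).

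Retinoic acid sets the anterior limits of Hox expression in the embryo. Of 16 genes for its synthesis, breakdown and reception, 14 were tested. Cyp26b1, the enzyme that breaks retinoic acid down, had 1.22, 0.896 and 0.998 FPKM in young sham, 2.07, 2.03 and 2.47 in aged sham and 2.54, 2.17 and 3.01 in aged injury libraries. It rose 2.02-fold with age (log2 change 1.01, limma adjusted p = 0.0236) and 2.34-fold between young sham and aged injury (log2 change 1.23, limma adjusted p = 0.00275). The receptor gene Rara rose in the latter comparison, from 1.55, 1.66 and 1.40 to 1.86, 2.62 and 2.48 FPKM (log2 change 0.56, limma adjusted p = 0.0376). With injury limma called 0 of 14, with 4 at an unadjusted p under 0.05. The highest members were Rxrb (11.9 FPKM) and Aldh1a1 (10.2 FPKM).

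Other genes of axial level were mostly silent in the adult ganglion. Gdf11, the secreted factor that triggers the posterior Hox genes in the embryo, had a mean of 8.73 FPKM, and Nr6a1, a trunk factor, 1.34 FPKM. Cdx2, Cdx4 and the forelimb gene Tbx5 were at 0 in every library, and the hind limb genes Pitx1 and Tbx4 did not exceed 0.0338 and 0.165 FPKM. Limma called 0 of the 3 tested genes in any comparison, and none had an unadjusted p under 0.05. The 8 genes of the forebrain and midbrain, which lie ahead of all Hox expression, summed to at most 0.107 FPKM in a library, with Otx2 and Emx2 at 0 in all of them.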

How the data were processed

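RNA of pooled sciatic ganglia, of integrity number above 7.5, was sequenced from both ends with the TruSeq mRNA kit, per the labels' protocols. The authors deposited 1 table of FPKM values for 9 libraries; the submitters' processing notes list, with build mm10 and without roles, FastQC 0.10.1, TopHat2 2.0.12 with Bowtie2 2.2.3, HTSeq 0.6.0, SAMtools 0.1.19, and R 3.1.1 with edgeR 3.8.6 and limma 3.22.7. For annotation release and strand handling the sources used here give nothing.

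Symbols, positions and homeoboxes came from GENCODE M21 (same build), the homeobox being found by a conserved motif in the translated coding sequence; protein sequences were not used here. Whole reads were recovered from the steps of the FPKM values, within 0.001 of a whole read, and are known up to a common factor per gene. The same search on moved values found 13 of 1000. Intervals and limits from reads cover counting error only.

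The 17601 genes averaging 0.2 FPKM or more were tested on log2(FPKM + 0.1) in limma 3.58.1 (R 4.3.3), with a variance trend, all 9 libraries in 1 fit and two-sided moderated tests; p-values were adjusted by Benjamini-Hochberg over all genes tested, and an adjusted p under 0.05 was a call. Log2 changes are on that scale, which understates low genes. The settings were tested on simulated data. P-values measure the spread between pools of mice. The mean paralog number has no test. Replicate numbers were not taken to pair libraries.

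Hox genes of at least 1 FPKM are given in every library, called genes with their test, others by range; of the other lists, called members, the 2 highest and those at 0 are named, and some members are not reported here. The members and lists were chosen with earlier results of these data known. Alternatives were other pseudocounts, filters, scalings and designs, and each library left out. Voom on recovered reads and the mean paralog number without Hoxd1 were added after seeing the data.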

Additional observations from a re-analysis of the deposited data

How the results depend on the processing

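All called Hox genes were lower under each alternative tried. With age, limma called 2 Hox genes, and 1 with no filter and 0 with only the 2 groups compared; leaving out 1 library gave 0 to 3. With injury it called 2, and 1 with a pseudocount of 1, with equal medians or with quantile normalization, and 0 with no filter or with only the 2 groups; leaving out 1 library gave 0 to 1. Fits with 0 calls had 6 to 10 Hox genes at an unadjusted p under 0.05. In the third comparison the 9 calls became 6 to 11 under other settings and 4 to 9 with a library left out.

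Over all genes, the 707 age calls became 239 with no filter, 31 with only the 2 groups, 1072 with voom on recovered reads (added after seeing the data), and 23 to 1536 with a library left out. The 723 injury calls became 302 with only the 2 groups and 151 to 740 with a library left out, and the 2304 calls of the third comparison 869 to 2365. The split of age calls was 445 higher and 262 lower, but 278 and 535 with equal medians, 388 and 509 with quantile normalization and 587 and 485 with voom. The injury split was 432 and 291, and 283 and 292 with equal medians. In the third comparison it was 1444 and 860, and 1028 and 1674 with equal medians and 1168 and 1241 with quantile normalization.

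To see whether same-numbered libraries deviated together, each gene's group mean was subtracted from its log2 values. The deviations were then correlated between libraries over all tested genes. Within a group they sum to 0 for each gene, so the correlations are not independent of one another. Correlations of these deviations for same-numbered libraries were -0.03, -0.07 and -0.05 with age, and -0.03, -0.02 and -0.05 in the third comparison. With injury they were 0.24, 0.27 and 0.06, all above those of differently numbered libraries, which were -0.26 to 0.04. What lies behind this pattern between aged sham and injured libraries was not tested. With the replicate number as a block, limma called 0 Hox genes with age (10 at an unadjusted p under 0.05), 0 with injury (6) and 6 in the third comparison, and 101, 273 and 1561 genes in all.

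The difference in mean paralog number kept its sign throughout. Aged sham minus young sham was -0.1305, and -0.0484 with log2 weights, -0.0355 over groups 4 to 13, -0.0272 without Hoxd1 and -0.1516 to -0.1077 with a library left out. Aged injury minus aged sham was 0.2019, and 0.0935, 0.0682, 0.0671 and 0.1791 to 0.223. Aged injury minus young sham was 0.0714, 0.0327 over groups 4 to 13 and 0.0536 to 0.0872 with a library left out. The cause of these shifts was not tested, apart from the genes each setting leaves out. The lowest Hox genes rest on few reads, such as 2 to 14 for Hoxa11, so the depth limits what can be said of their changes.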
